A study of Mus musculus with 4 samples.

Results

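The genes examined were those of the oxidative phosphorylation machinery that are encoded in the nucleus, as measured by microarray in NIH-3T3:Per2-Luc cells. Members were all genes whose name on the array began with *Ndufa*, *Ndufb*, *Ndufc*, *Ndufs*, *Ndufv*, *Uqcr*, *Cox4*, *Cox5*, *Cox6*, *Cox7*, *Cox8* or *Atp5*, together with *Sdha*, *Sdhb*, *Sdhc* and *Sdhd*. This gave 90 genes of the 24104 named genes on the array, carried by 134 probes. The choice used gene names only and no measured value.

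NIH-3T3:Per2-Luc is a line of mouse embryonic fibroblasts that carries a luciferase reporter under the promoter of the clock gene *Per2*, and all 4 samples were of this line. Cells of 3 samples received a pulse of critical oxidative stress (cOS-pulse), 5 mM H2O2 for 10 min, and RNA was taken 4 h, 20 h or 32 h post cOS-pulse. The control received 0 mM H2O2 and an exchange to fresh medium, and its label gives 4 h. Each condition was 1 array, all 4 arrays lay on 1 slide, and every time point was compared with the same control array. There were therefore no replicates and no test could be run: an effect of the pulse, a difference between cultures and a difference between arrays cannot be told apart here. The 20 h and 32 h arrays also differ from the 4 h control in hours of culture. An effect of those hours cannot be told apart from the pulse either.

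Oxidative phosphorylation is carried out by 5 protein complexes of the inner mitochondrial membrane. Complexes I (NADH dehydrogenase) and II (succinate dehydrogenase) feed electrons into ubiquinone, complex III passes them to cytochrome c, complex IV (cytochrome c oxidase) reduces oxygen to water, and complex V (ATP synthase) uses the resulting proton gradient to make ATP. Complexes I and III are also known sources of superoxide, and all complexes except complex II combine nuclear-encoded subunits with subunits encoded in mitochondrial DNA.

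By complex, the rule found 42 members in complex I, 4 in complex II, 8 in complex III, 19 in complex IV and 17 in complex V. Complex I held 7 core subunits, which carry the flavin and iron-sulphur clusters, 29 accessory subunits, 4 assembly factors named *Ndufaf*, and *Ndufa4* with its relative *Ndufa4l2*, proteins now counted with complex IV. Complex IV held 10 subunits common to most tissues, 7 tissue isoforms, the supercomplex factor *Cox7a2l*, and *Cox4nb*, which shares only the name and is now called *Emc8*. *Atp5s* and *Atp5sl* (now *Dmac2l* and *Dmac2*) were placed in complex V by the start of their names alone, and are factors rather than subunits of it.

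Levels are given as scaled log2 signals, the log2 of the scanner's processed signal less the 75th percentile of all probes on that array, and each gene is represented by its brightest probe. Of the 90 members, 86 were well above background on all 4 arrays and 2, *Cox8b* and *Cox8c*, on none. The number of members detected was 86 in the control and 87 or 88 at the time points, against 52.7% to 59.1% of all probes. The error given with a log2 ratio combines the scanner's own error of the spots, about 10% per array, and is not a replicate error. It was 0.20 for most members, while the 10 spots of *Uqcrc2*, a complex III subunit, had a standard deviation of 0.03 to 0.04 on the log2 scale within each array.

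Few members changed by 2-fold. At 4 h post cOS-pulse, 2 of the 88 members with a ratio passed 2-fold upwards from the control and 1 passed it downwards, where 11.2% of all genes with a ratio were 2-fold higher and 9.38% were 2-fold lower. At 20 h, no member passed 2-fold in either direction, against 1.37% of all genes higher and 3.4% lower. At 32 h, 1 of 87 members was 2-fold higher and none lower, against 2.2% and 2.58% of all genes. Between 20 h and 32 h, none was 2-fold higher at 20 h and 1 was 2-fold lower, against 0.793% and 1.98%. Among the 7038 genes whose mean signal reached the 75th percentile, as that of most members did, 6.76% were 2-fold higher and 7.05% lower at 4 h. The same shares were 0.44% and 1.22% at 20 h, and 0.654% and 0.952% at 32 h. Of these bright genes 0.0568% were 2-fold lower at 20 h than at 32 h. All 4 members past 2-fold were assembly factors or tissue isoforms, so no common subunit of any complex passed 2-fold. These are bulk RNA levels, in which fewer cells of a kind and less RNA per cell cannot be told apart.

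The median log2 ratio of the measured members was 0.10 at 4 h, 0.09 at 20 h and 0.04 at 32 h, and that of all measured genes was 0.12, 0.02 and 0.02. Against other well expressed genes, the spread of the members was smaller at each time. Between 20 h and 32 h it was larger, where dim tissue isoforms of complex IV spread widely. The standard deviation of their ratios at 4 h was 0.40, compared with 0.70 among those 7038 genes, at 20 h it was 0.12 compared with 0.31, and at 32 h 0.24 compared with 0.32. For 20 h over 32 h it was 0.28 compared with 0.14, and 1.18 over the 5 measured tissue isoforms of complex IV. In complexes I, II, III and V it was 0.06, 0.03, 0.045 and 0.07, and in the common complex IV subunits 0.07, all below 0.14. At 20 h, 71 of 86 measured members were above the control by some amount, where 53% of all genes were, and the ratio exceeded its spot error in 8 members, compared with 5750 of 13344 genes. At 32 h, 61 of 86 were above the control, again against 53%, and 72 of 87 were higher at 20 h than at 32 h, against 50.9% of all genes, and 2 of the 87 differed by more than the spot error, compared with 2395 of 13248 genes.

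**Figure D1:**
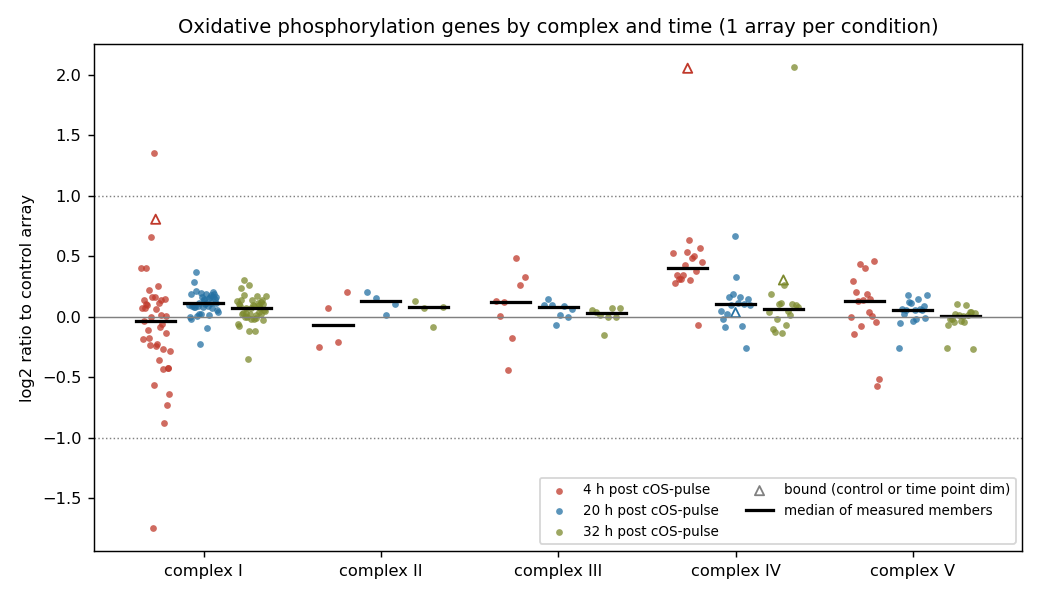
Log2 ratio to the control array of every measured member (points), by complex and time post cOS-pulse. Black bars are medians, open triangles are bounds for genes dim on 1 of the arrays, and dotted lines mark 2-fold. At 4 h the complex IV members lay mostly above the control, with a median of 0.40, and complex I members spread from -1.74 to 1.35, while at 20 h and 32 h nearly all members lay close to the control.

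The medians of the complexes lay apart at 4 h and close together later. The median log2 ratio at 4 h was -0.04 for complex I (41 measured), -0.07 for complex II, 0.12 for complex III, 0.40 for complex IV (16 measured) and 0.13 for complex V. Relative to the median of all genes, complex IV was higher by 0.29, complexes I and II were at -0.15 and -0.18, and complexes III and V were at 0.01 and 0.02. At 20 h, the 5 medians lay between 0.06 and 0.13, and at 32 h between 0.01 and 0.08. Complex IV minus complex I was 0.44 at 4 h, -0.01 at 20 h and -0.01 at 32 h.

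These distances do not depend on the constant by which an array is scaled, but the direction against the control does. Before scaling, the 75th percentile of the 4 h array less that of the control was -0.28 in log2, whereas its median was higher by 0.08 and its spike-in controls by 0.12. Scaled by the median of all probes, the median of all genes at 4 h moved from 0.12 to -0.24, and scaled by the spike-ins to -0.28. Over 6 ways of scaling, 16 of the 86 measured members stayed above the control at 4 h, 33 stayed below it and 37 changed side. Scaling by the 75th percentile of all probes gave each measured member its highest ratio of the 6. A member below the control at that scaling therefore stayed below it under all. Changes at 4 h are therefore given relative to the median of all genes as well. Directions against the control at 20 h and 32 h also depend on the constant and are given at the main scaling. Before scaling, the 20 h array exceeded the control by 0.33 at the 75th percentile, 0.23 at the median and 0.13 in the spike-ins. For the 32 h array these were 0.18, 0.15 and 0.03.

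Within complex I, the core stood lower than the accessory subunits. All 7 nuclear-encoded core subunits were lower than in the control at 4 h, with log2 ratios from -0.88 to -0.26 and a median of -0.43. At this scaling 43.3% of all measured genes were lower. All 7 stayed lower under the other 5 scalings, which lowered every one of these ratios and so could not reverse them. Their median lay -0.55 from that of all genes. The size was not unusual for this array: 30.3% of all measured genes were at or below the ratio of the core subunit nearest the control.

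*Ndufs3*, a subunit of the peripheral arm that joins the ubiquinone-binding module, had scaled log2 signals of 4.29 in the control, 3.41 at 4 h, 4.36 at 20 h and 4.36 at 32 h. Its level at 4 h was 1.84-fold lower than in the control, a log2 ratio of -0.88 with a spot error of 0.20. *Ndufs3* had the lowest ratio of any subunit, and the level was at that of the control again at 20 h and 32 h.

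*Ndufs7*, which holds the last iron-sulphur cluster before ubiquinone, measured 4.45 in the control, 3.72 at 4 h, 4.59 at 20 h and 4.55 at 32 h. *Ndufv2*, an iron-sulphur subunit of the NADH-oxidizing module, measured 4.39, 3.75, 4.45 and 4.44 in the same order. Both were low on the 4 h array only, 1.66-fold and 1.56-fold below the control. Scaled by the median of all probes or by the spike-ins, *Ndufs3*, *Ndufs7* and *Ndufv2* each passed 2-fold, the first 2 at -1.24 and -1.09 by the median.

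Other core subunits followed with smaller differences. *Ndufv1*, the subunit that binds NADH and flavin, had a log2 ratio of -0.42 at 4 h, *Ndufs8* at -0.42, and *Ndufs1*, the largest subunit, at -0.26. At 20 h all 7 core subunits were above the control, as 71 of 86 measured members and 53% of all genes were. They were above it by 0.06 to 0.18, which was within the spot error of each, and at 32 h they lay between -0.03 and 0.10.

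The 29 accessory subunits of complex I, which surround the core and take no direct part in electron transfer, had a median log2 ratio of 0.00 at 4 h, which lay -0.11 from that of all genes. At this scaling 15 were above and 14 below the control, but scaled by the median of all probes or by the spike-ins 28 of the 29 were below it, with medians of -0.36 and -0.40. Relative to the median of all genes, 22 of 29 were below. Their extremes were *Ndufb10* at -0.57 and *Ndufa1* at 0.40, and both kept their side of the control under all 6 scalings. *Ndufb10* measured 4.89 in the control, 4.32 at 4 h, 5.05 at 20 h and 4.91 at 32 h. *Ndufa1*, an X-linked membrane-arm subunit, measured 5.50, 5.90, 5.60 and 5.63. The accessory median lay 0.44 above the core median at 4 h, 0.03 above it at 32 h, and -0.00 from it at 20 h.

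**Figure D2:**
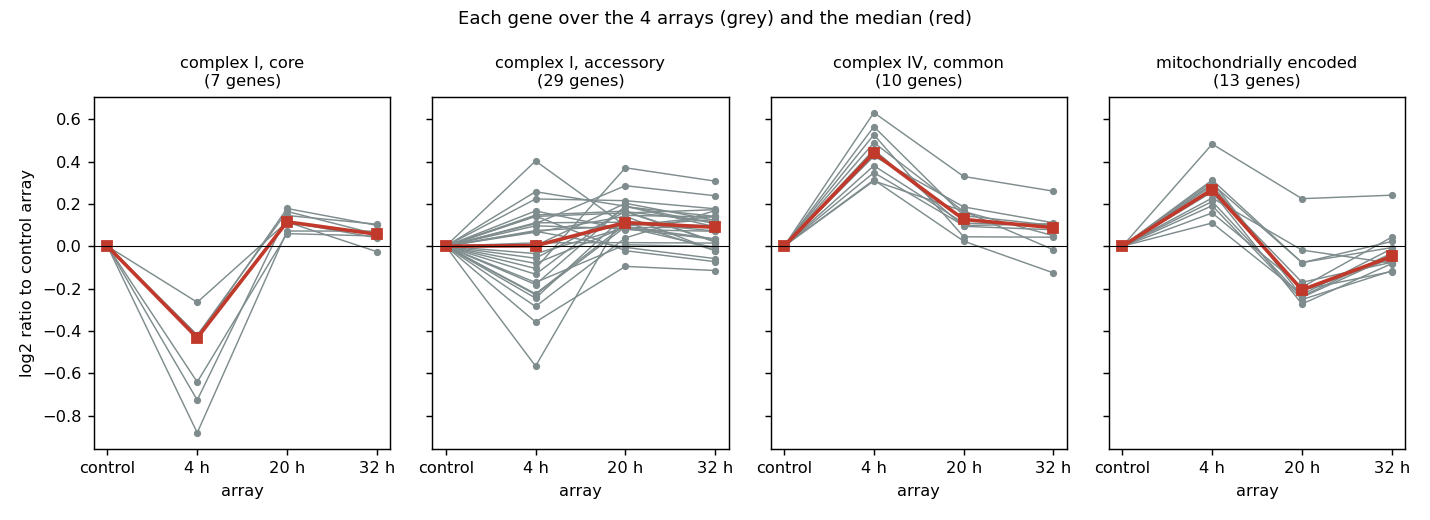
Log2 ratio to the control for each gene (grey lines) and their median (red squares) on the control, 4 h, 20 h and 32 h arrays, which are 4 separate cultures and not a time course of 1 culture. The 7 complex I core genes were low at 4 h alone. The 10 common complex IV genes were above the control at 4 h at this scaling (6 of them when scaled by the spike-ins). All 13 mitochondrially encoded genes were above the control at 4 h at this scaling (1 of 13 above by the spike-ins). At 20 h, 12 of these 13 were below the control at this scaling.

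The common subunits of complex IV lay together. All 10 common subunits were higher than in the control at 4 h, with log2 ratios from 0.31 to 0.63 and a median of 0.44, each above its spot error, as 10098 of 13332 genes were in either direction, and above the median of all genes, although under scaling by the median of all probes or by quantile normalization 3 of the 10 fell below the control and by the spike-ins 4 did. Of all measured genes 56.7% were higher than in the control, and 37.6% reached the ratio of the lowest of these 10. Their median exceeded that of all genes by 0.32, and by 0.15 after quantile normalization, under which 8 of the 10 were above the median of all genes.

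*Cox6c*, a small membrane subunit, was the highest, with scaled log2 signals of 5.67 in the control, 6.30 at 4 h, 5.997 at 20 h and 5.93 at 32 h. It was 1.55-fold above the control at 4 h and still 1.26-fold above it at 20 h, the single common subunit whose ratio exceeded the spot error at that time. *Cox7c* measured 4.07, 4.63, 4.21 and 4.17, and *Cox4i1*, the ubiquitous form of the subunit through which ATP regulates the enzyme, measured 5.84, 6.37, 5.89 and 5.89. In each of the 3 genes the 4 h array was the highest of the 4 at this scaling, and the ratio of 4 h to the control stayed above 0 under all 6 scalings.

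The other common subunits had log2 ratios of 0.49 (*Cox7a2*), 0.46 (*Cox8a*), 0.42 (*Cox6b1*), 0.38 (*Cox7b*), 0.35 (*Cox6a1*) and 0.31 (*Cox5a* and *Cox5b*) at 4 h. *Cox5a*, *Cox5b* and *Cox6a1* were those that fell below the control when scaled by the median of all probes. At 32 h the 10 genes lay between -0.13 and 0.26. *Ndufa4*, now counted with complex IV, was at 0.40 at 4 h, and *Cox7a2l*, which tethers complexes III and IV, at 0.50, both within the range of the common complex IV subunits.

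The distance between the 2 classes varied little under the processing steps able to move it. The median of the common complex IV subunits lay 0.87 above that of the complex I core, and between 0.81 and 0.89 under all 16 alternatives to the processing. Many of the 16 could not change it, because they shift an array by a constant or leave these genes untouched. The distance was 0.01 at 20 h and 0.03 at 32 h. The probes of the 2 classes differed in base composition, with a median GC content of 39.2% for complex IV and 45.0% for the core of complex I, and over the 86 measured members the rank correlation of GC content with the 4 h ratio was -0.22, against -0.02 over all genes. With the GC trend of all genes removed, a setting chosen after the data were seen, the medians were -0.56 for the core and 0.34 for complex IV relative to all genes. Any further part of base composition in the result was not tested.

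**Figure D3:**
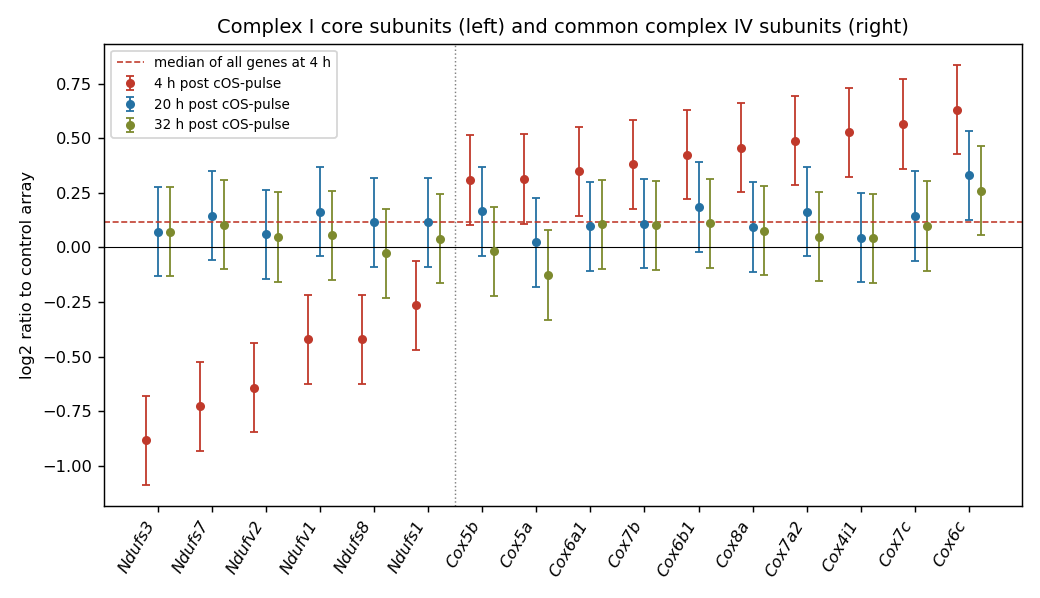
Log2 ratio to the control for 6 of the complex I core subunits (left of the dotted line) and the common complex IV subunits (right), at 4 h, 20 h and 32 h post cOS-pulse, with bars for the scanner's spot error, which is not a replicate error. At 4 h the 6 core subunits lay below and all 10 complex IV subunits above the median of all genes, 0.12 (dashed line), or 8 of the 10 after quantile normalization.

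The smaller complexes were mixed. In complex II, the enzyme shared with the tricarboxylic acid cycle, the catalytic flavoprotein *Sdha* was at -0.25, the membrane anchor *Sdhc* at -0.21, the iron-sulphur subunit *Sdhb* at 0.07 and the anchor *Sdhd* at 0.21 at 4 h. *Sdha* measured 3.23 in the control, 2.98 at 4 h, 3.43 at 20 h and 3.36 at 32 h. All 4 genes were above the control at 20 h, by 0.01 to 0.21.

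In complex III, *Uqcrfs1*, the Rieske iron-sulphur protein, had the highest ratio at 4 h and *Uqcrc1*, a matrix-side core protein without a redox centre, the lowest. *Uqcrfs1* measured 3.49 in the control, 3.98 at 4 h, 3.58 at 20 h and 3.56 at 32 h, a log2 ratio of 0.49 at 4 h. *Uqcrc1* measured 1.49, 1.06, 1.42 and 1.34, a ratio of -0.44. Both kept their side of the control under all 6 scalings. *Uqcrc2*, the partner of *Uqcrc1*, was at -0.18, which was beyond the error of its 10 spots, 0.06. *Uqcrq* and *Uqcrh*, small subunits, were at 0.33 and 0.26, and fell below the control under some scalings.

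Complex V was spread around the median of all genes. The F1 head, made of the products of *Atp5a1*, *Atp5b*, *Atp5c1*, *Atp5d* and *Atp5e*, had log2 ratios at 4 h from -0.14 for *Atp5c1*, the rotating stalk, to 0.29 for *Atp5b*, the catalytic beta subunit. *Atp5a1*, the alpha subunit, had a ratio of -0.00 at 4 h and was lowest late, with signals of 4.92 in the control, 4.92 at 4 h, 4.66 at 20 h and 4.66 at 32 h. *Atp5a1* was the lowest of the complex V subunits at 20 h, at -0.26 with a spot error of 0.20. The size of that ratio depends on the scaling. Before scaling, the 20 h array exceeded the control by 0.33 at the 75th percentile and by 0.13 in the spike-ins.

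The proton-translocating c ring of complex V is encoded by *Atp5g1*, *Atp5g2* and *Atp5g3*, whose mature proteins are the same. Their ratios at 4 h were -0.08, 0.14 and 0.40 in that order. The 2 probes of *Atp5g1* disagreed, the dimmer one being at 0.60, so no order among the genes is drawn. Among the accessory subunits, *Atp5l* was highest, at 0.46, and its 6 probes lay within 0.09 of each other. The factors *Atp5s* and *Atp5sl* were lower than any complex V subunit, at -0.57 and -0.52.

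**Figure D4:**
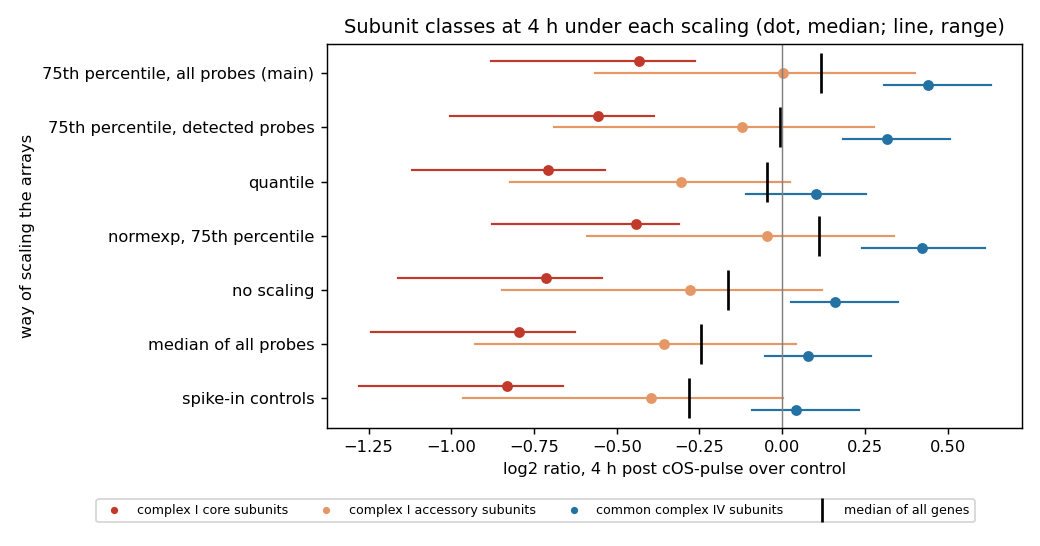
Median (dot) and range (line) of the 4 h log2 ratio for 3 subunit classes under 7 ways of scaling or background correction, with the median of all genes as a black tick. The whole pattern slides with the scaling, the median of all genes from 0.12 to -0.28, so the common complex IV subunits come to straddle the control, while the distance between complex IV and the complex I core stays between 0.81 and 0.89. A constant per array cannot move that distance.

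Of the 4 *Ndufaf* assembly factors of complex I, 1 was 2-fold lower and 1 was 2-fold higher at 4 h. *Ndufaf3* measured -1.82 in the control, -3.57 at 4 h, -1.62 at 20 h and -1.56 at 32 h. It was 3.35-fold lower at 4 h, a log2 ratio of -1.74 with a spot error of 0.24, and at least 2-fold lower under each scaling. Its probe maps to chr9:108468692-108468899 (mm9, minus strand).

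*Ndufaf4* measured 1.46 in the control, 2.81 at 4 h, 1.482 at 20 h and 1.34 at 32 h. By this probe, at chr4:24829194-24829253 (mm9, plus strand), it was 2.55-fold higher at 4 h, but the second, dimmer probe of the gene gave a log2 ratio of 0.33 in place of 1.35, and *Ndufaf4* no longer passed 2-fold under scaling by the median of all probes or by the spike-ins. *Ndufaf1* was at 0.66 and *Ndufaf2* at 0.17 at 4 h. *Ndufaf2* was the lowest complex I member late, at -0.22 at 20 h and -0.35 at 32 h.

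The sequences upstream of the genes at the 2 ends of the 4 h range are shown so that the letters can be set beside the changes. RefSeq (GRCm38.p6) gave a window of 300 bases, 250 before and 50 after the start, for 74 of the 90 members. Shown are the 150 bases before the start of the 2 lowest core subunits of complex I, the 2 highest common subunits of complex IV and the 2 assembly factors past 2-fold, each among genes with a window, on the strand of the gene, with matches to the motifs searched in capitals.
*Ndufs3*, chr2:90904722-90904871, minus strand: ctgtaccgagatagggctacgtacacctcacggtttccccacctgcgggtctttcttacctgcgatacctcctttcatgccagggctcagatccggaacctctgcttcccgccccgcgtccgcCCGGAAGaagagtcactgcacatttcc
*Ndufs7*, chr10:80249299-80249448, plus strand: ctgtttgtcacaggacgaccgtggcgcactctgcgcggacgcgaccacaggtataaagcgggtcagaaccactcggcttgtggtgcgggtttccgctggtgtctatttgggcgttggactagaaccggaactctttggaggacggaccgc
*Cox7c*, chr13:86046796-86046945, minus strand: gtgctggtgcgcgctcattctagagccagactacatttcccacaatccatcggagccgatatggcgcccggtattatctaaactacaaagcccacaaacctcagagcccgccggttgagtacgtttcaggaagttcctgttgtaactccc
*Cox7a2*, chr9:79759854-79760003, minus strand: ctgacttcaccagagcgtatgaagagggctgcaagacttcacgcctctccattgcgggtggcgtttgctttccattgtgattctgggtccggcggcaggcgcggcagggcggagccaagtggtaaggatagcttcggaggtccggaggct
*Ndufaf3*, chr9:108567437-108567586, minus strand: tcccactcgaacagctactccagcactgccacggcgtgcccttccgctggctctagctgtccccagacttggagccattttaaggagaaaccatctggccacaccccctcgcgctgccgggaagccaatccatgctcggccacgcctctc
*Ndufaf4*, chr4:24897933-24898082, plus strand: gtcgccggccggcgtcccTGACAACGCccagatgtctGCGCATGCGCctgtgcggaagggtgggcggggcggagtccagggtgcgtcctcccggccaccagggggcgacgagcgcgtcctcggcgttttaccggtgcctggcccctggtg

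In these letters, *Ndufs3* held an ETS core and *Ndufaf4* held an NRF1 core, read on both strands because it is a near palindrome, and an antioxidant response core. Outside the stretch shown, *Ndufs7* held a YY1 core, *Ndufs3* a second ETS core and *Ndufaf4* a further NRF1 core after the start, and *Ndufaf3* held an antioxidant response core further upstream. The 6 motifs, searched on both strands over the whole window, were NRF1 (GCATGCGC), ETS (CCGGAAG), YY1 (AAGATGGCG), ERR (TCAAGGTCA), the antioxidant response element core (TGACNNNGC) and the E-box (CACGTG).

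The NRF1 letters were in 11 of the 74 member windows (14.9%), against 3.05% of all 27025 promoters and 5.83% of those of genes measured at 4 h. The YY1 letters were in 8 windows (10.8%), against 1.64% and 3.57%, and the ETS letters in 17 (23%), against 9.93% and 19.7%. The ERR letters were in 2 (2.7%), against 0.466% and 0.351%. The antioxidant response core was in 11 windows (14.9%), against 14% of all promoters and 16.7% of those of genes measured at 4 h. The E-box was in 7 (9.46%), against 8.09% and 11.5%. For both motifs the members thus lay between the 2 shares.

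No motif was found in every window of one class and in none of the other. Of the 5 complex I core windows, 2 held ETS, 1 YY1, 1 the antioxidant response core, 1 the E-box and 0 NRF1, and of the 8 common complex IV windows, 3 held ETS, 1 NRF1, 1 the antioxidant response core and 0 YY1 or the E-box. Members with the NRF1 letters had a median log2 ratio at 4 h of 0.01 (11 genes) and those without of 0.12 (62 genes). For ETS the medians were 0.13 (17 genes) and 0.08 (56 genes), and for YY1 -0.05 (8 genes) and 0.11 (65 genes). For the antioxidant response core they were 0.00 (11 genes) and 0.12 (62 genes), and for the E-box 0.22 (7 genes) and 0.10 (66 genes). For ERR they were 0.30 (2 genes) and 0.10 (71 genes). These differences were not tested. A match is a description of the letters and not a measured binding site.

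The tissue isoforms of complex IV were all dim, below the 75th percentile of each array, and every change past 2-fold outside complex I came from *Cox6a2* or *Cox7b2*. *Cox6a2*, the heart and skeletal muscle form, was not well above background in the control and was detected at the other 3 times, with signals of -5.11, -2.71, -4.72 and -4.46. Its level at 4 h was at least 4.15-fold higher than the control, the bound being taken over the lowest detected signal of that array. Markers of striated muscle moved the same way, with 0 of 7 detected in the control and 4 of 7 at 4 h, and a summed signal of 0.161 in the control and 0.407 at 4 h, relative to the 75th percentile of each array. *Ckm*, *Myh6* and *Mb* were detected on none of the arrays. The 4 h array also detected the largest share of all probes, 59.1%, and the part of either in this result was not tested.

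*Cox7b2*, a testis form, measured -4.38 in the control, -4.44 at 4 h, -4.63 at 20 h and -2.31 at 32 h. It was 4.18-fold above the control at 32 h, a log2 ratio of 2.06 with a spot error of 0.32, and 5.00-fold lower at 20 h than at 32 h. The 32 h array alone was high, on a single probe of 1 spot whose other 3 signals were near the lowest detected signal of their arrays, -4.76 in the control, -4.94 at 4 h and -5.11 at 20 h. Of 7 germ cell markers, 2 were detected both in the control and at 32 h, and the summed signal of all 7 was 0.285 and 0.321. At 4 h, 4 of the 7 were detected and that sum was 0.824, the highest of the 4 arrays.

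*Cox6b2*, another testis form, measured -2.85 in the control, -2.32 at 4 h, -2.19 at 20 h and -2.99 at 32 h. It was the member highest above the control at 20 h, at 0.67 with a spot error of 0.23. *Cox4i2*, an oxygen-regulated form expressed in lung, and *Cox7a1*, a muscle form, were at 0.28 and 0.30 at 4 h. *Ndufa4l2* was detected at 4 h only, at least 1.75-fold above the control, and gave no ratio at 20 h or 32 h.

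Agreement between probes gives a further check on single ratios, beside the spot error. Of the 30 members with 2 or more probes, 29 had at least 2 measured at 4 h, and the median range of their ratios was 0.07. The range exceeded 0.3 in 5 genes and 1 in 1 gene, *Ndufaf4*. The others were *Ndufv3* (0.91), *Atp5g1* (0.68), *Ndufb5* (0.52) and *Cox7c* (0.42), and in *Ndufv3*, *Atp5g1* and *Ndufb5* the probes lay on opposite sides of the control. In *Cox7a2l* and *Ndufb11* the range exceeded 0.3 at 20 h and 32 h but not at 4 h. The furthest probe of *Cox7a2l* was at -0.68 at 20 h and -0.56 at 32 h, where the brightest was at -0.07 and 0.01, and that of *Ndufb11* was at -0.23 and -0.27 against 0.08 and 0.07. Some probes lie in copies of a gene: 2 of the 3 probes of *Atp5k* are placed on chromosome Y and 1 of the 2 of *Cox5b* on chromosome 15, and their ratios at 4 h are within 0.06 of the brightest probe.

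**Figure D5:**
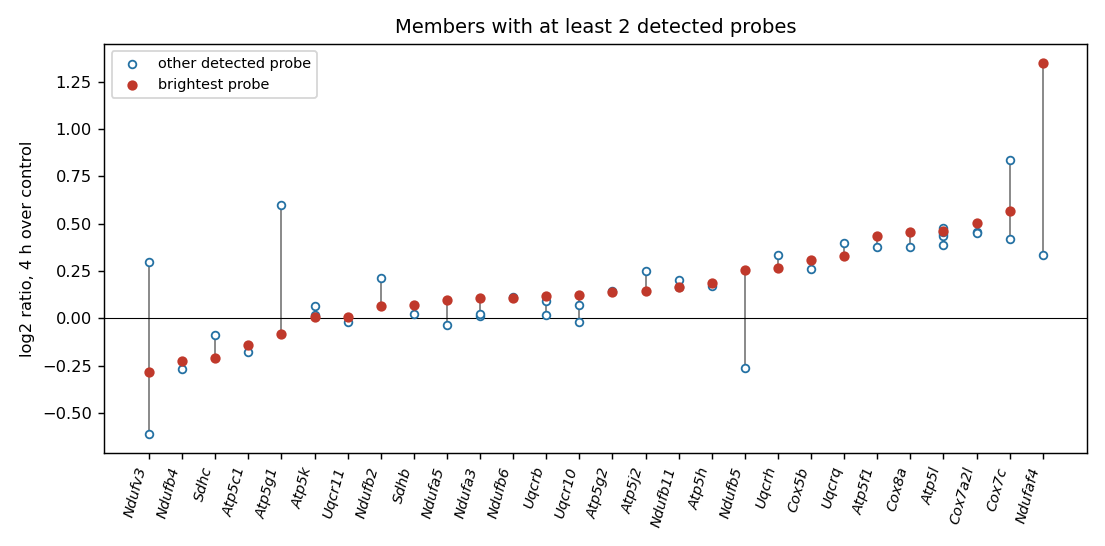
Log2 ratio at 4 h over the control for 28 of the 29 members with at least 2 measured probes, ordered by the brightest probe (filled), with the other probes of the gene open. In most genes the probes lay together, with a median range of 0.07, and *Ndufaf4*, *Ndufv3*, *Atp5g1*, *Ndufb5* and *Cox7c* are the 5 that spread by more than 0.3.

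The subunits encoded in mitochondrial DNA, which assemble with the members in complexes I, III, IV and V, were measured for comparison. All 13 had a probe detected on every array, although the probe named *ND3* is placed on chromosome 1 in mm9. Their log2 ratios at 4 h were 0.11 to 0.48 with a median of 0.27, and all but 1 were above the median of all genes. That position depended on the scaling, since only 1 of 13 was above the control by the median of all probes, by the spike-ins or by quantile normalization, and by the latter only 1 was above the median of all genes.

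Among them, the 7 of complex I (*ND1* to *ND6* and *ND4L*) had ratios at 4 h of 0.11 for *ND5* to 0.48 for *ND6*. *COX1*, *COX2* and *COX3*, the catalytic core of complex IV, were at 0.26, 0.30 and 0.29. At 20 h and at the main scaling, 12 of 13 were below the control, as 6266 of 13344 genes were. They ran from -0.27 for *COX1* to -0.02 for *ND1*, and *ND6*, the one encoded on the light strand, was at 0.22. The side at 20 h also depends on the scaling. Before scaling, the 75th percentile of the 20 h array was 0.33 above that of the control, and its spike-ins were 0.13 above. *COX1* measured 8.42 in the control, 8.68 at 4 h, 8.15 at 20 h and 8.34 at 32 h. The median of the 13 was -0.05 at 32 h.

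Genes that serve the pathway but fall outside the naming rule were followed by list. The counts past 2-fold at 4 h in each list stand beside 11.2% of all genes higher and 9.38% lower. Of 19 electron carriers, ubiquinone enzymes and dehydrogenases, 17 were measured, with a median of -0.48 at 4 h and 1 gene 2-fold higher and 4 lower. *Etfb* and *Etfdh*, which deliver electrons from fatty acid oxidation to ubiquinone, were at -1.15 and -1.24, *Dhodh* of pyrimidine synthesis at -1.15 and *Coq9* of ubiquinone synthesis at -1.34. *Coq10b*, a ubiquinone-binding protein, was at 1.08. Cytochrome c (*Cycs*) was at 0.49 and the complex III subunit *Cyc1* at -0.11.

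Of 28 further assembly factors on the array, 1 was 2-fold higher and 4 lower at 4 h, with a median of -0.21 over 24 measured. *Lyrm7*, a factor for the Rieske protein, was detected at 4 h alone, at least 11.3-fold above the control. *Tmem126b* (-1.44) and *Ecsit* (-1.14) act on complex I and *Taco1* (-1.42) on the translation of *COX1*. *Atpaf1*, a complex V factor, was detected in the control alone, at least 2.55-fold above 4 h, 2.87-fold above 20 h and 2.20-fold above 32 h.

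In the tricarboxylic acid cycle and pyruvate dehydrogenase list, all 25 genes were measured and 3 were 2-fold lower at 4 h, against 9.38% of all genes. *Pdk2*, a kinase that inhibits pyruvate dehydrogenase, measured -1.09 in the control, -3.63 at 4 h, -0.74 at 20 h and -0.63 at 32 h, a log2 ratio of -2.53. *Pdk4*, a kinase of the same family, was at -1.10 and *Dlat*, a subunit of the enzyme it inhibits, at -1.09. The median of the list was -0.15. Of 13 genes of ATP export and its control, the testis carrier *Slc25a31* alone passed 2-fold, at least 2.62-fold higher at 4 h from a dim control.

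Regulators of mitochondrial biogenesis lay the other way, with a median of 0.44 at 4 h over 17 measured genes. Of 18 genes, 4 were at least 2-fold higher and 2 lower, against 11.2% and 9.38% of all genes. *Ppargc1a*, a coactivator of respiratory genes, was at 1.03, *Nrf1*, a transcription factor for respiratory subunits, at 1.02, *Gabpb1*, a subunit of an ETS-family factor, at 1.195, and *Ppard*, a nuclear receptor, at 1.51. *Tfb1m*, a mitochondrial rRNA methyltransferase, was at -1.77, and *Ppargc1b*, detected in the control but not at 4 h, was at least 2.62-fold lower. Under scaling by the median of all probes or by the spike-ins, only *Ppard* of the 4 higher genes stayed past 2-fold, and *Ppard* and *Gabpb1* did so when that percentile was taken over commonly detected probes. Outside *Atpaf1*, no gene of these lists passed 2-fold at 20 h or 32 h.

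The labelled cell type was checked on its markers. All 12 fibroblast markers were detected on the 4 arrays, among them *Col1a1*, *Vim* and *Fn1*, and their median log2 ratio was -0.44 at 4 h, -0.56 at 20 h and -0.33 at 32 h, with 10 of the 12 below the control at 20 h and at 32 h. *Pdgfrb* was 2.56-fold lower at 4 h, and *Thy1*, *Col1a1* and *Col3a1* were 2.62-fold, 2.08-fold and 2.02-fold lower at 20 h. Their summed signal, relative to the 75th percentile of each array, was 760 to 854. The epithelial markers *Epcam* and *Cdh1* and the leukocyte marker *Ptprc* were detected on none. *Krt8* and *Krt14*, of 6 epithelial markers, and *Cd68*, *Cd3e*, *Aif1* and *Itgam*, of 6 immune markers, were detected on all 4 arrays. The summed signal was 0.694 to 1.43 for the epithelial list and 12.1 to 32.9 for the immune list, highest at 4 h in both. *Cd68* was 4.23-fold and *Krt8* 2.25-fold higher at 4 h, and *Aif1* 2.06-fold higher at 32 h. The part of any of these in the results was not tested.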

How the data were processed

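Total RNA of 4 cultures was hybridised to one-colour Agilent mouse arrays, 1 array per condition, and processed with Agilent Feature Extraction 10.7.3.1. The deposited signal intensity of each spot had a fitted spatial surface subtracted as background and was then detrended by that software, and its values are not scaled between arrays. The deposited table holds the same intensity divided by 1 constant per array. Its scale is linear and uncentred, and it was used as an alternative.

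Spots flagged as outliers (125 to 161 of 43020 non-control spots per array) were left out, no spot was saturated, and log2 of the deposited intensity was averaged where a probe had several spots, giving 39429 probes. From each value the 75th percentile over that array's probes was taken away. Detection required that 50% or more of a probe's spots be flagged by the scanner as well above background. Where 1 of the arrays compared was dim, the ratio is a bound, taken against its own signal or that array's lowest detected signal, whichever was larger. Each gene took its brightest probe, and 2-fold was the limit for naming a change. Python 3.11.15 with numpy 2.4.6 and pandas 2.3.3, and limma 3.58.1 in R 4.3.3 (normexp, offset 50) were used, and the steps were tested on simulated data. With 1 array per condition no test was run, and the significance analysis named in the study's methods was not run. Depth is not defined for arrays, and their number limits the precision.

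The text names every member past 2-fold in any comparison, the core subunits and tissue isoforms, the highest and lowest of each complex at 4 h, members detected on no array or with disagreeing probes, and genes past 2-fold in the other pathway lists. Common complex IV subunits and a few others were named in addition, after their values were seen. One member is included in the counts and medians and is not reported here by itself. The members and lists were chosen with earlier results of these data known. Of the 134 probes, 120 matched a RefSeq transcript by accession, which gave the newer symbols of 4 genes.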

Additional observations from a re-analysis of the deposited data

Results flagged for a closer look

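The 7 complex I core subunits were all below the control at 4 h and all above it at 20 h post cOS-pulse, with medians of -0.43 and 0.12, a difference of 0.55 on the log2 scale. Both ratios share the control array, and the difference was not tested. It was drawn to attention because every gene lay on the opposite side of the control at the other time. The 20 h ratios were each within the spot error. Of all measured genes, 43.3% were lower at 4 h and 53% higher at 20 h. Being above the control at 20 h was not particular to the core. It held for 71 of 86 measured members, among them 26 of 29 complex I accessory and 10 of 10 common complex IV subunits.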

How the results depend on the processing

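With 1 array per condition, no replicate was left out. No paired analysis was possible because each group held 1 sample. Of 592 values for 36 results under 18 other settings, 562 stayed within the spread or within 1.5 times the count, 30 moved and no change past 2-fold turned its direction. Medians relative to all genes cannot move when a setting only shifts an array by a constant, so many of the 562 could not have changed. The 3 settings of the GC trend, the spike-ins without 1 probe and the second brightest probe were chosen after seeing the data.

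At 4 h, the 2 members past 2-fold higher became 1 when scaled by the median of all probes or by the spike-ins (with or without 1 probe), with measured ratios only, with the median of a gene's probes, the second brightest probe, subunits only, members detected on all 4 arrays or a 3-fold limit, and 5 at 1.5-fold. The 1 member 2-fold lower became 4 by the median of all probes, by the spike-ins (with or without 1 probe) or at 1.5-fold, 3 by quantile normalization or with no scaling, 2 by the 75th percentile of probes detected on all arrays, and 0 with subunits only. At 1.5-fold, 1 member was higher at 20 h than in the control and 1 higher at 20 h than at 32 h. Relative to all genes at 4 h, quantile normalization moved the median of all members to -0.18, of complex V to -0.21, of the complex I accessory subunits to -0.26 and of the common complex IV subunits to 0.15. With no filter on dim probes, the medians at 20 h relative to all genes became 0.23 for all members and 0.24, 0.26, 0.21, 0.24 and 0.19 for complexes I to V. The causes were not tested. Of 461 values for single members, 170 moved and none that was past 2-fold changed sign. Signal over background limits *Cox6a2* and *Ndufa4l2* to bounds at 4 h, and *Cox8b* and *Cox8c* have no ratio.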
